A study of Homo sapiens with 2 samples.

Results

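The regions described here are the long stretches of the HEK293T genome in which no contact domain was listed. HEK293T is a line derived from human embryonic kidney cells and expressing the large T antigen of SV40. Its chromatin contacts were mapped by in situ Hi-C, in which crosslinked chromatin is cut with MboI, the ends are joined and the junctions are sequenced. The series held 2 libraries of 1 group of cells, crosslinked with formaldehyde and otherwise untreated, with no second condition. The 3 deposited tables (compartment scores of 1 Mb bins, contact domains and loops) describe both libraries as one map, so replicate error cannot be given here, and intervals cover counting error only. The gaps were selected on the domain table: overlapping domains of each autosome were merged, intervals of 500 kb or more between consecutive merged domains were taken, and those that touched a bin without a compartment score were dropped. This left 682 gaps among 3412 intervals between 3439 merged domains, so their number, lengths and places on the chromosomes follow from the domain table and are given as a description with no test.

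Contact domains are stretches of chromatin that contact themselves more than their surroundings. Many are held by cohesin, which extrudes a loop of DNA until it meets CTCF bound at convergent sites, and these leave a point of contact between the domain's ends. At a larger scale, active and gene-rich chromatin (the A compartment) and inactive, gene-poor and often lamina-bound chromatin (the B compartment) contact their own kind. A stretch without a listed domain can hold chromatin that folds without sharp borders, or domains that a caller did not list at the depth of the map. Positions below are in hg19 and are counted from 1. Genes are named only as general knowledge of a region, since no gene table of this build was used, and no gene was placed by coordinates.

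Gaps of 500 kb or more were 20.0% of all intervals between domains but held most of their length. Their summed length was 1087 Mb, which was 39.8% of the 2732 Mb of autosomal bins with a score and 78.6% of the length of all intervals whose bins carried scores. Merged domains held 42.6% of the scored length. The median interval of any length was 95 kb. The median gap was 1.02 Mb long, with quartiles at 690 kb and 1.99 Mb and a longest gap of 9.74 Mb. Lengths were skewed, with 333 gaps under 1 Mb that held 21.5% of the gap length, and 170 gaps of 2 Mb or more that held 55.3% of it. Of the latter, 21 reached 5 Mb. The 18 intervals dropped for a bin without a score lay on 18 chromosomes and were long, from 3305 kb to 32.6 Mb with a median of 5.41 Mb, so the rule removed some of the longest stretches without a domain.

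**Figure D1:**
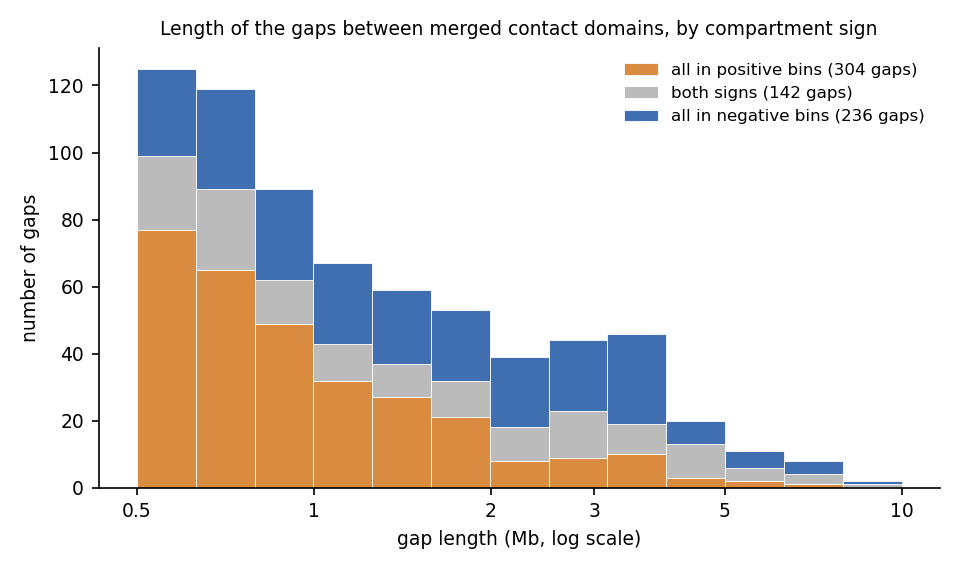
Number of gaps (vertical axis) by length in Mb (horizontal axis, log scale), with each bar divided into gaps that lay wholly in bins of positive score, wholly in bins of negative score, or in both. Gaps under 1 Mb were mostly positive (191 of 333), whereas 86 of the 170 gaps of 2 Mb or more were wholly negative and 33 wholly positive.

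No break in length set the gaps apart from shorter intervals at the threshold. There were 48 gaps from 500 to 550 kb and 47 intervals from 450 kb to just under 500 kb. The 5 gaps just inside the threshold were each 500 kb long, on chromosomes 1, 3, 12, 16 and 18. Those on chromosomes 1, 3, 12 and 18 lay in positive bins and that on chromosome 16 in negative bins. The 5 intervals just outside it were each 495 kb long, on chromosomes 1, 3, 5, 9 and 14. Of these, the ones on chromosomes 1 and 5 lay in negative bins, those on chromosomes 3 and 9 in positive bins, and 73.7% of the one on chromosome 14 was negative.

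Every autosome held gaps, from 7 on chromosome 21 to 64 on chromosome 2. Their number per 10 Mb of scored length ran from 1.84 on chromosome 21 to 3.28 on chromosome 19. The share of the scored length in gaps was highest on chromosome 3, where 59 gaps held 53.0% of the scored length, followed by chromosomes 4 (49.2%), 18 (47.8%) and 7 (45.1%). It was lowest on chromosome 1, where 50 gaps held 25.3%. Chromosomes 17, 12 and 20 came next, each at 29.6%, and the median over the 22 autosomes was 41.4%. Chromosomes 2 and 16 reached similar shares (43.7% and 43.9%) with gaps of unlike length, a median of 1.07 Mb against 870 kb. The small gene-rich chromosome 19 combined the highest number per 10 Mb with the shortest maximum, 2.395 Mb. On the other chromosomes the longest gap measured from 2.735 Mb (chromosome 20) to 9.74 Mb (chromosome 4).

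**Figure D2:**
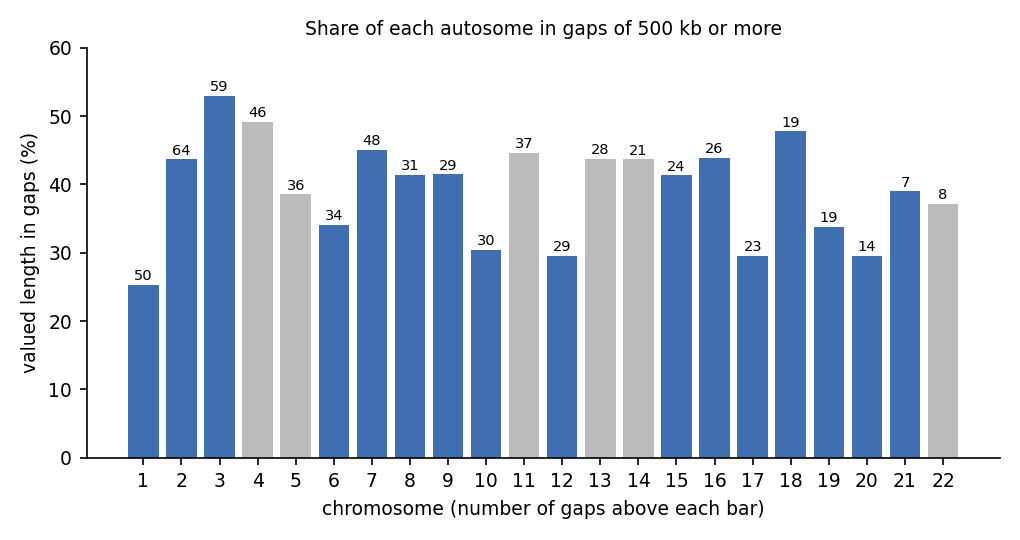
Percent of the scored length of each autosome that lay in gaps (bars), with the number of gaps printed above. Grey bars mark chromosomes 4, 5, 11, 13, 14 and 22, whose compartment sign is read apart in the text. Chromosome 3 stands highest at 53.0% and chromosome 1 lowest at 25.3%.

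The 12 longest gaps measured 6.125 to 9.74 Mb and lay on 10 chromosomes. The longest, chr4:27670001-37410000, was wholly negative, with a mean score percentile of 6.95 within the chromosome. It lay, however, on the arm of chromosome 4 that is mostly negative. It covers a gene-poor stretch of the short arm known for PCDH7, a protocadherin that mediates cell adhesion. The second, chr12:124100001-133440000, was 9.34 Mb long and only 53.5% negative. It is known for the TMEM132 genes, and it was the only one of the 12 with loop anchors inside, 6 in all.

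The third to the sixth of the longest gaps differed in sign. The third, chr16:58735001-66395000 (7.66 Mb), was wholly negative and is known for the cadherin genes CDH8 and CDH11. The fourth, chr3:79545001-86810000 (7.265 Mb), was also wholly negative and is known for CADM2, a synaptic adhesion gene. The fifth, chr4:58280001-65480000 (7.2 Mb), was wholly positive, but it lay on the arm of chromosome 4 that is almost wholly positive. It ended at a domain of 2795 kb and is known for ADGRL3, an adhesion receptor of neurons. The sixth, chr11:36515001-43600000 (7.085 Mb), was 43.5% negative and is known for LRRC4C, a synaptic adhesion gene.

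The remaining 6 of the 12 included an imprinted region. The seventh, chr21:19860001-26785000 (6.925 Mb), known for the neural adhesion gene NCAM2, was wholly negative. The eighth, chr9:6035001-12700000 (6.665 Mb), known for the receptor phosphatase gene PTPRD, was 85.5% negative. The ninth, chr3:161145001-167760000 (6.615 Mb), known for the butyrylcholinesterase gene BCHE, was wholly negative. The tenth, chr14:81930001-88480000 (6.55 Mb), known for FLRT2, was 54.2% negative. The eleventh, chr15:23250001-29425000 (6.175 Mb), was wholly negative and covers the imprinted Prader-Willi and Angelman region. The twelfth, chr5:22215001-28340000 (6.125 Mb), known for the cadherins CDH9 and CDH10, was wholly positive. Across the 12, 6 were wholly negative, 2 wholly positive and 4 held both signs. Both wholly positive ones and the longest wholly negative one lay on chromosomes 4 and 5, where the score has the limits given next.

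The compartment score had its own limits on 6 chromosomes. Scores are scaled within each chromosome to a sum of squares of 1, so levels were compared only by sign or by rank within a chromosome, and no source used here gives the sign that stands for the A compartment. On chromosomes 5, 11, 13, 14 and 22 a single bin carried 42.3% to 97.9% of the squared score. On chromosome 4 the sign followed the arms, with 46 of 50 bins negative before the longest inner stretch without scores and 137 of 140 positive after it. The main results on sign are therefore given with and without these 6 chromosomes, and the others cover all autosomes.

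Gap sequence lay more often in bins of negative score than domain sequence did, and the difference came from the long gaps. Of the gap length, 58.2% was in negative bins, against 49.5% of all scored autosomal bins, 44.4% of merged domains and 31.6% of intervals under 500 kb. Without the 6 chromosomes it was 66.6% against 53.8% of all bins. The negative share of the gap length exceeded that of all bins on 19 of 22 chromosomes, and on 15 of the 16 left without those 6. Chromosome 19 was the exception among the 16, with 50.2% in gaps against 60.3% over all bins. The widest differences among the 16 were on chromosomes 6 (78.1% against 53.3%) and 15 (63.9% against 44.6%).

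By length, intervals were mostly positive under 1 Mb, near balance at 1 to 2 Mb and mostly negative from 2 Mb. Of the length in intervals of 300 to 500 kb, 31.6% was negative, and in gaps of 500 to 700 kb it was 30.6%, so gaps just above the threshold resembled the intervals just below it. The share was 35.2% for gaps of 700 kb to 1 Mb and 48.8% for gaps of 1 to 2 Mb. It was 73.8% for those of 2 to 3 Mb, 69.0% for those of 3 to 5 Mb and 76.1% for the 21 gaps of 5 Mb or more. Without the 6 chromosomes the last 3 classes rose to 82.6%, 90.6% and 92.7%, while the classes from 500 kb to 2 Mb stood at 31.1%, 38.2% and 49.0%. A gap shorter than a bin shares its score with the domains beside it, and 100 gaps lay within a single bin, so the sign of short gaps is partly that of their neighbours.

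**Figure D3:**
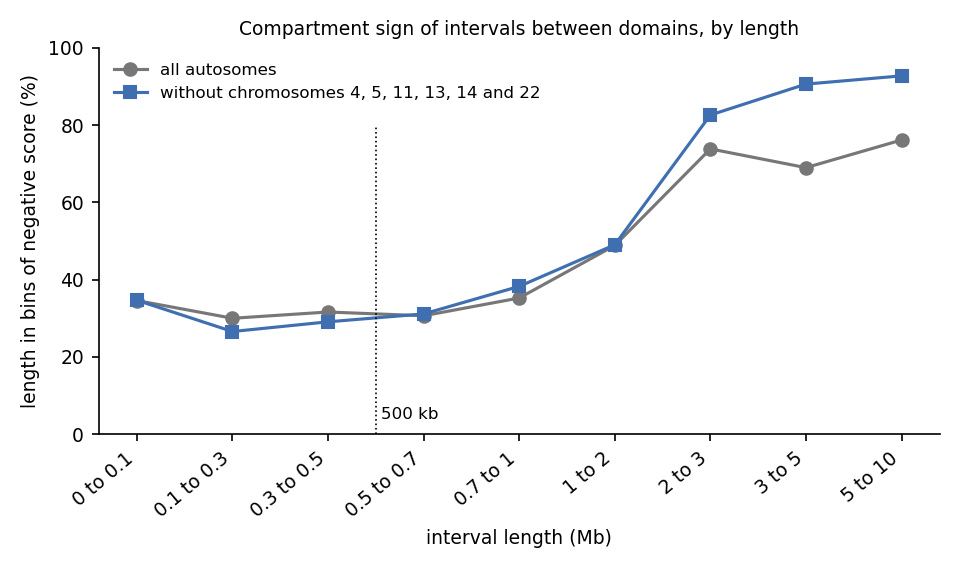
Percent of interval length that lay in bins of negative score (vertical axis) by interval length class in Mb (horizontal axis), for all autosomes and without 6 chromosomes. The dotted line marks the 500 kb threshold. Over all autosomes the share is 31.6% just below the threshold and 30.6% just above it, and it reaches 92.7% for the longest gaps once the 6 chromosomes are left out.

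Counted by gap rather than by length, wholly positive gaps outnumbered wholly negative ones. There were 304 wholly positive gaps (44.6%) with a median length of 857.5 kb, 236 wholly negative ones (34.6%) with a median of 1412.5 kb, and 142 that held both signs (20.8%). Outside the 6 chromosomes, gaps under 1 Mb comprised 144 positive, 68 negative and 43 mixed ones. Those of 2 Mb or more comprised 7 positive, 75 negative and 35 mixed ones. In terms of rank within the chromosome, the median gap under 1 Mb had a mean score percentile of 64.0 (quartiles 44.1 and 78.6) and the median gap of 2 Mb or more one of 24.1 (13.8 and 48.6). These ranges overlapped at their quartiles. Without the 6 chromosomes the upper quartile of the long gaps, 34.4, fell below the lower quartile of the short ones, 44.0.

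Bins that lay wholly in a gap shared no sequence with a domain. Only gaps of 1 Mb or more can hold such a bin, so the 333 gaps under 1 Mb do not contribute here. A total of 505 bins of 1 Mb lay wholly in a gap, and 349 of them were negative (69.1%, 95% Wilson interval 64.9 to 73.0%). Of the 1126 bins partly in a gap 46.4% were negative, as were 43.5% (40.6 to 46.5%) of the 1101 bins that met no gap. Without the 6 chromosomes, 286 of 340 bins wholly in a gap were negative (84.1%, 79.9 to 87.6%), against 45.6% (42.2 to 49.0%) of bins that met no gap. The median percentile of the former was 17.1, against 59.0 for the latter. Bins that met no gap include any scored bins of the 18 dropped intervals, which hold no domain either. Neighbouring bins have similar scores, so these intervals are too narrow.

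**Figure D4:**
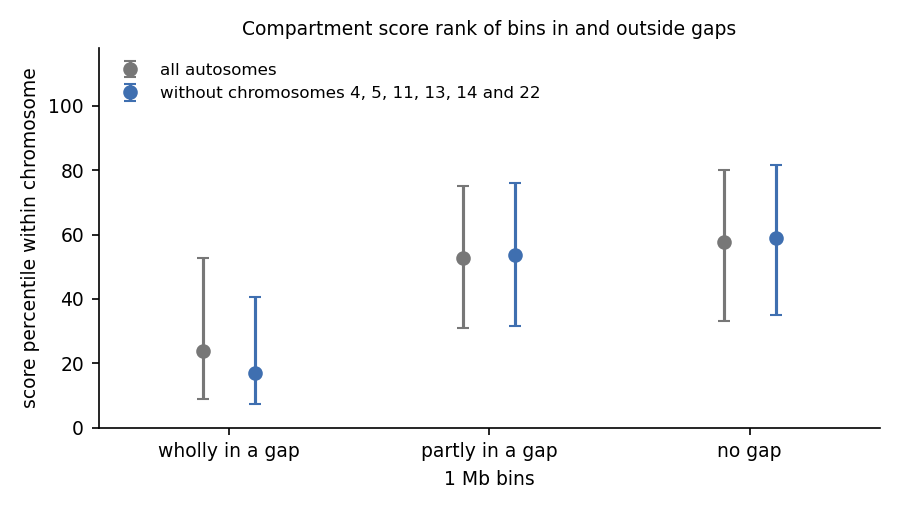
Percentile of the compartment score within its chromosome (vertical axis) for 1 Mb bins wholly in a gap, partly in a gap and meeting no gap. Points are medians and bars run from the first to the third quartile of bins. The median is 24.0 for bins wholly in a gap, 52.6 for those partly in one and 57.8 for those meeting none.

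Within long gaps the score was lowest away from the ends. In the 101 gaps of 3 Mb or more, the first and last bins had a median percentile of 34.3 and the inner bins one of 20.3, and the end bins ranked higher in 73 gaps. Without the 6 chromosomes the medians were 33.3 and 15.8, and the end bins ranked higher in 55 of 64 gaps. End bins also contain part of the flanking domain or its surroundings. Switches of sign were not concentrated in gaps. Over all autosomes, 168 of 1083 borders between neighbouring bins that fell inside a gap (15.5%) were switches, against 324 of 1608 (20.1%) elsewhere.

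Long gaps that went against this order were few outside the 6 chromosomes. The 7 wholly positive gaps of 2 Mb or more there measured 2.14 to 4.71 Mb. The longest, chr9:135805001-140515000, lies near the gene-rich end of chromosome 9, and its bins had a mean percentile of 89.2. A gap of 2.60 Mb at chr2:238365001-240965000, close to the end of chromosome 2, followed with a mean percentile of 84.5. The other 5 ranked from 51.2 to 69.9. These gaps were chosen for naming after their values were seen.

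Loops are focal contacts that join 2 anchors and stand out from the pixels around them. On the autosomes 1398 listed loops spanned up to 2 Mb and 73 spanned more, and the 2 sets are kept apart. Gaps were poor in anchors of the shorter loops. They held 311 of 2796 anchors (11.1%) on 39.8% of the scored length, which is 0.286 per Mb (95% Poisson interval 0.255 to 0.320). Intervals under 500 kb held 1.54 per Mb (1.41 to 1.69) and merged domains 1.71 per Mb (1.63 to 1.78), 5.40 and 5.97 times the density of gaps. The pooled value for short intervals came mostly from the shortest, with 3.57 per Mb under 100 kb, 1.14 at 100 to 300 kb and 0.856 (0.694 to 1.04) at 300 to 500 kb. The last of these overlapped the 0.826 (0.662 to 1.02) of gaps of 500 to 700 kb, so the low density was not particular to gaps at the threshold. No anchor of these loops was listed in 507 gaps (74.3%), with a summed length of 831 Mb. The longest of these was the 9.74 Mb gap on chromosome 4. Loops and domains were listed from the same contacts and domains often end at loop anchors, so the low density in gaps is not independent of how gaps were chosen.

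**Figure D5:**
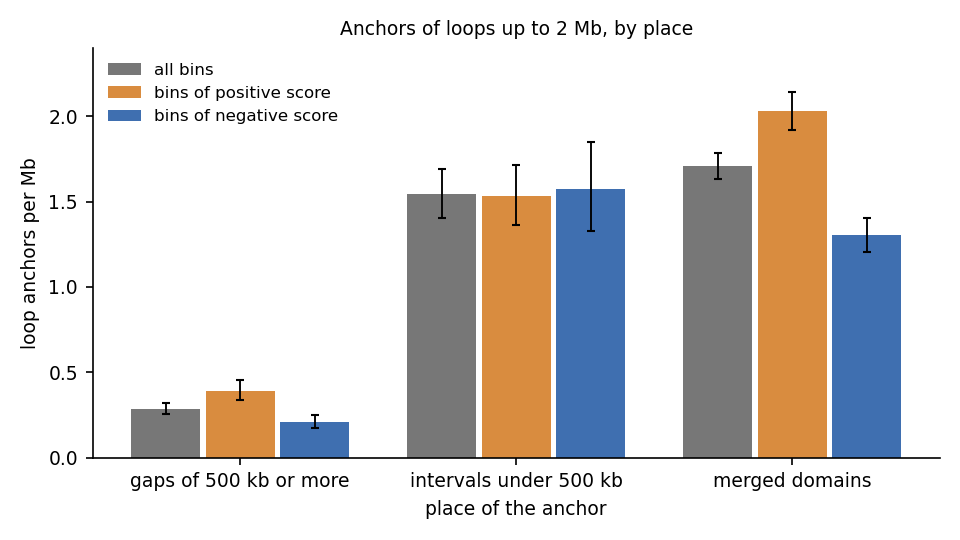
Anchors of loops up to 2 Mb per Mb of sequence (vertical axis) in gaps, in intervals under 500 kb and in merged domains, over all bins and by the sign of the bin. Error bars are 95% Poisson intervals. Gaps stand lowest at 0.286 per Mb, with 0.392 in positive and 0.210 in negative bins.

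Anchor density fell with the length of a gap, and the intervals of the 2 signs were apart only with lengths pooled. In positive bins gaps held 0.392 anchors per Mb (0.337 to 0.454), and in negative bins 0.210 (0.176 to 0.249), a ratio of 1.87. Without the 6 chromosomes these were 0.544 (0.458 to 0.642) and 0.220 (0.181 to 0.265). Negative gaps were longer, however, and the density fell from 0.826 per Mb in gaps of 500 to 700 kb to 0.301 in those of 1 to 2 Mb and 0.0945 in those of 5 Mb or more. It fell with length among wholly negative gaps as well, from 0.603 (0.422 to 0.835) under 1 Mb to 0.141 (0.101 to 0.190) at 2 Mb or more. Among wholly positive gaps it fell from 0.711 (0.575 to 0.869) to 0.108 (0.0557 to 0.188). Within each length class the intervals of the 2 signs overlapped, with and without the 6 chromosomes. At 1 to 2 Mb the densities were 0.369 (0.265 to 0.501) for wholly positive and 0.232 (0.145 to 0.351) for wholly negative gaps. At 2 Mb or more the positive value was the lower one over all autosomes. Without the 6 chromosomes the positive value was the higher one in each length class. It was 0.759 against 0.677 under 1 Mb, 0.406 against 0.233 at 1 to 2 Mb and 0.356 against 0.142 at 2 Mb or more. Sign and length went together and the intervals overlapped, so the difference by sign cannot be told apart from that by length. Outside the 6 chromosomes only 7 wholly positive gaps reached 2 Mb, and they held 0.356 anchors per Mb (0.143 to 0.733), so for them the order by length rests on few gaps.

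Anchors within gaps were crowded toward the ends. Each end is a domain border and domains often end at loop anchors, so this is not independent of how gaps were chosen. The outer 50 kb at each end made up 6.27% of the gap length and held 103 of the 311 anchors (33.1%), 1.51 per Mb (1.23 to 1.83). This is close to the pooled density of intervals under 500 kb, which ranged from 3.57 under 100 kb to 0.856 at 300 to 500 kb. Beyond the outer 50 kb of gaps the density was 0.204 per Mb (0.177 to 0.234), and beyond 250 kb from either end it was 0.166 (0.138 to 0.198). For 52 of these anchors near an end the loop ran out across that end, for 38 the other anchor lay in the same gap, and for 13 it lay beyond the far end.

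A loop with both anchors in 1 gap was listed for 76 of the 682 gaps (11.1%, Wilson interval 9.0 to 13.7%). Without the domains below the first quartile of caller scores this share was 19.0%, so it depends on which domains are accepted. The 88 loops of the gaps described here were 6.29% of the shorter loops, and 68 of the 76 gaps held 1 loop each. Their median anchor distance was 270 kb, equal to that of all loops up to 2 Mb, and the median loop covered 17.1% of its gap. They lay in gaps of either sign: 38 in wholly positive gaps, 29 in wholly negative gaps and 21 in mixed ones. Another 123 loops had 1 anchor in a gap, and 6 joined 2 different gaps. Loops with 1 anchor in a gap were longer, with a median of 485 kb against 250 kb for the 1181 loops with none.

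Loops inside gaps rested on fewer contacts than loops elsewhere, with about the same enrichment. Among loops with 10 kb anchors and distances of 200 to 400 kb, the 23 inside gaps had a median of 67 observed contacts against 25.1 expected from the surrounding donut, and the 372 with no anchor in a gap had 85 against 32.7. Median enrichments, observed over expected, were 2.74 and 2.63. At distances under 200 kb the medians were 83 and 100 contacts, with enrichments of 2.36 and 2.37. At 400 to 800 kb they were 65 and 68.5 contacts, with enrichments of 2.86 and 2.80. The expected contacts were lower inside gaps in each of these classes. Local contact density thus moved with the place of the loop, and its part in the low number of loops in gaps was not tested.

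The 8 loops inside gaps with the most contacts came from 8 gaps, and each spanned 450 kb or less. The first lay in chr10:45945001-48300000, a positive gap in a stretch of chromosome 10 known for segmental duplications. It had 349 contacts at a distance of 35 kb, the most of any loop up to 2 Mb, and an enrichment of 2.75 (95% Poisson interval 2.47 to 3.05). Its anchors were 5 kb wide and those of the others 10 kb. The second lay in chr14:21570001-22850000, a gap known for the T cell receptor alpha genes, with 141 contacts and an enrichment of 2.00 (1.68 to 2.36) at 50 kb. The third lay in chr18:30260001-31415000, with 127 contacts and an enrichment of 2.25 (1.88 to 2.68) at 260 kb. The other 5 had 103 to 109 contacts and enrichments of 2.03 to 2.45. They lay in chr16:55035001-55915000, chr14:102410001-106875000, chr10:98270001-98825000, chr5:38815001-40745000 and chr17:70715001-71235000. The last of them, in chr17:70715001-71235000, joined 70720001 and 71170001 and spanned 86.5% of its gap.

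Of the 8 gaps that held 2 or more loops, 4 held 3. Anchors were 5 or 10 kb wide, so counts of contacts are comparable only between loops with anchors of the same width. One was the 9.34 Mb gap of chromosome 12, where all 3 loops lay between 124520001 and 125335000, near its start, and the rest of the gap held none. In the negative gap chr16:55035001-55915000, known for the matrix metalloprotease gene MMP2, the 3 loops used anchors near 55490001, 55740001 and 55870001. They had 59, 45 and 109 contacts, the 45 on 5 kb anchors and the others on 10 kb anchors. Each loop joined a different pair of the 3 places. In chr3:189665001-192245000, also wholly negative, 3 loops of 100 to 230 kb lay one after another without overlap. In the positive gap chr17:43470001-45285000, known for MAPT and for a common inversion, 2 of the 3 loops stood above the median enrichment of 2.76 for loops inside gaps. One, on 10 kb anchors, joined 43650001 and 44570001, 920 kb apart, with 50 contacts against 6.75 expected (7.41-fold, 5.50 to 9.77). The other, on 5 kb anchors, joined 43660001 and 44355001 with 24 contacts against 3.62 expected (6.64-fold, 4.25 to 9.87).

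The other 4 of the 8 gaps held 2 loops each. Except on chromosome 5, where both loops had 10 kb anchors, the loop with fewer contacts had 5 kb anchors and the other 10 kb ones. In the wholly negative gap chr5:98395001-101895000, 1 loop joined 98830001 and 99410001 with 26 contacts against 2.41 expected (10.8-fold, 7.06 to 15.8). A second one, from 98760001 to 99660001, enclosed it, with 23 contacts (7.39-fold, 4.68 to 11.1). The gap chr14:102410001-106875000, 77.6% negative, held loops of 108 and 27 contacts (2.22-fold and 4.69-fold), far apart from each other. The gap chr3:116475001-119615000, 80.4% negative, held loops of 62 and 37 contacts (2.49-fold and 4.48-fold). In the positive gap chr4:114675001-115310000 loops of 90 and 25 contacts (2.46-fold and 4.36-fold) started at nearly the same place. The highest enrichment of any loop inside a gap was elsewhere, in the positive gap chr2:86940001-88340000, named after its value was seen. That loop joined 86950001 and 87290001 on 21 contacts against 0.553 expected (38.0-fold, 23.5 to 58.0), and over the highest of its local expectations it was enriched 19.3-fold.

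Few gaps were bridged by a loop from one side to the other. Among the 512 gaps under 2 Mb, which a loop up to 2 Mb could bridge, 5 were spanned (0.977%, Wilson interval 0.418 to 2.27%). Spanning was also uncommon for intervals of 300 to 500 kb (3 of 295, 1.02%), and it was more common for those under 100 kb (114 of 1736, 6.57%). Only 271 of the shorter loops (19.4%) reached 500 kb, so most could not have bridged a gap.

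Of the 5 spanned gaps, 2 were close together on chromosome 17. The gap chr17:69080001-70120000 was wholly negative and lies in the gene desert known for the distant enhancers of SOX9, a transcription factor of cartilage and gonad development. A loop from 68760001 to 70530001 crossed it over 1770 kb, with 33 contacts against 8.19 expected (4.03-fold, 2.77 to 5.66). The nearby gap chr17:70715001-71235000 was crossed by a loop from 70550001 to 71360001, with 32 contacts against 8.33 expected (3.84-fold, 2.63 to 5.42).

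The other 3 spanned gaps lay on chromosomes 10, 13 and 4. The gap chr10:8085001-9250000, wholly negative and in the region known for GATA3, a transcription factor of kidney and T cell development, was crossed by a loop from 7910001 to 9340001. It had 39 contacts on 5 kb anchors and an enrichment of 3.83 (2.72 to 5.24), whereas the other 4 spanning loops had 10 kb anchors. The positive gap chr4:54050001-54780000, close to the growth factor receptor gene PDGFRA, was crossed by a loop from 53880001 to 55080001 with 45 contacts and an enrichment of 3.14 (2.29 to 4.21). The gap chr13:20175001-21070000 was crossed by a loop from 20120001 to 21840001 on 16 contacts against 0.780 expected (20.5-fold, 11.7 to 33.3). Over the highest of its 4 local expectations that loop was enriched 9.14-fold, and the other 4 loops 2.56-fold to 3.24-fold.

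The anchors of listed loops of more than 2 Mb were placed differently from those of shorter ones. Of their 146 anchors, 73 (50%, Wilson interval 42.0 to 58.0%) lay in gaps and 31 (21.2%) in merged domains. For shorter loops these shares were 11.1% (10.0 to 12.3%) and 71.1%. Some long loops share an anchor. Counting each anchor site once, 67 of 129 (51.9%, 43.4 to 60.4%) lay in gaps, on 12 chromosomes and in 34 gaps, with 6 in 1 gap of 880 kb, chr7:149115001-149995000. Gaps held 39.8% of the scored length, which is just below the lower bound of the first interval. However, 20 of the 146 anchors lay in none of gaps, scored intervals under 500 kb and merged domains, so the 2 shares have unlike bases. Anchors that share a site or a gap are not independent, so the interval is too narrow. No excess of long-loop anchors in gaps is read from it. No long loop had both anchors in the same gap. Because a long loop crosses much of a chromosome, 242 gaps lay under at least 1 of them, which says little about those gaps. On chromosome 9 each gap from 95560001 to 123375000 lay under 9 of them. The distances of these listed contacts were not summarised, and what the contacts represent was not tested.

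The merged domains that bordered gaps had similar median lengths to the others but less often had a loop between their ends. In all, 145 merged domains (4.22%) stood alone between 2 gaps, 1074 bordered 1 gap and 2220 bordered none. Median lengths were 255, 245 and 245 kb. A loop joined both ends, within 50 kb, for 21 of the 145 (14.5%, Wilson interval 9.67 to 21.1%), for 20.0% (17.7 to 22.5%) of those beside 1 gap and for 26.8% (25 to 28.7%) of those beside none. Median caller scores, taken as the highest among the merged domains, were 1.18, 1.18 and 1.23. Merged domains that joined several listed ones were 2.07%, 4.75% and 8.65% of the 3 classes. Some gaps also followed one another in series. Gaps were 20.0% of all intervals, so some would stand next to each other in any order, and clustering was not tested. The longest series was on chromosome 15, where 5 gaps with a single merged domain between each pair ran over chr15:40490001-48650000, and the gaps held 82.8% of those 8.16 Mb.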

How the data were processed

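The authors deposited 3 tables of both in situ Hi-C libraries together, and no column names a library, so no replicate was left out. The submitters' processing notes name BWA 0.7.8, Picard, FastQC 0.11.7 and build hg19, with no roles. The deposited compartment score is given per 1 Mb bin, by a method not given in the sources used here, as is the caller of the deposited domains, called on 5 kb bins, with a score each. The name of the loop table gives HiCCUPS at 5 and 10 kb. It holds, per the file headers, the observed count of contacts, an expected number from each of 4 neighbourhoods, and a q-value (FDR) for each. Library depth is unknown.

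Domains that only met end to start (5 pairs) were not merged, and they leave no interval. A loop lay inside a gap when both anchors did. It spanned a gap when its anchor centres lay on either side. Anchors were placed by their centres and counted once for each loop. Enrichment is the observed count over the donut expectation, held fixed in its Poisson interval. Python 3.11.15, pandas 2.3.3 and scipy 1.17.1 were used, and interval building was checked on made layouts. The members, lists and rules were chosen with earlier results of these data known. Named gaps were the 12 longest, those with 2 or more loops inside, those with the 8 loops of most contacts and those at the threshold. The spanned gaps, the longest series, the long positive gaps and the gaps with the most enriched loop or the most long-loop anchors were named after their values were seen. No test was made, since all values come from 1 pooled map. Alternatives were other length thresholds, domains or loops with stricter scores, gaps that are partly scored, and chromosomes left out.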

Additional observations from a re-analysis of the deposited data

How the results depend on the processing

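No paired analysis was possible because the tables have no column for a replicate, and for the same reason no replicate could be left out. Of 41 recomputed values, 23 stayed within the counting interval of the value reported, or within 1.5 times for the number of gaps, and 18 moved beyond it. For shares of length these intervals treat gaps or neighbouring bins as independent, so they are only a rough yardstick and measure no replicate spread. With a threshold of 300 kb the median length was 715 kb, anchors were 0.340 per Mb and 43.9% of the scored length lay in gaps. With 1 Mb there were 349 gaps, with a median of 1970 kb, 65.1% of length negative, 14% with a loop inside, 0.193 anchors per Mb and 31.2% of the scored length. Leaving out domains below the first quartile of caller scores gave 819 gaps with a median of 1280 kb, of which 19.0% held a loop, 0.375 anchors per Mb and 54.2% of the scored length. Only 356 of them were identical to gaps of the report (43.5% of the 819 and 52.2% of the 682), so the borders of gaps depend on which domains are accepted. Keeping gaps that are partly scored, with most of their length in scored bins, gave 41.8% of the scored length. The negative share of length was 62.5% without chromosomes 5, 11, 13, 14 and 22 and 66.6% without chromosome 4 as well. Counted by gap over all autosomes, 47.7% had a negative mean score, below the 49.5% of bins that were negative. Over all autosomes the higher negative share thus holds for length and not for number. Loops with every FDR at most 0.01 gave 0.235 anchors per Mb. The share of gaps spanned stayed between 0.573 and 0.819%.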

Other observations

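Chromosome X was outside the rule. By the same steps it held 30 gaps of 500 kb or more, with a median of 1.78 Mb and a longest of 14.95 Mb, longer than any on the autosomes. They made up 65.6% of the 151 Mb of scored bins, above the 53.0% of chromosome 3. Of their length 79.9% was in negative bins, against 80.8% of all scored bins of the chromosome, so gaps there were not more negative than the rest. They held 16 anchors of loops up to 2 Mb, or 0.162 per Mb, and 5 of the gaps had a loop inside.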
